A study of Mus musculus with 6 samples.

Results

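Ribosome biogenesis factors were examined in 6 RNA-seq libraries from mouse WNT medulloblastoma, a hindbrain tumour driven by active WNT signalling. The genes were 40 named assembly factors, chosen by symbol, and all 40 were found among the 34591 gene rows of the deposited count tables. They were split by role into 3 subunits of RNA polymerase I, 2 nucleolar chaperones, 3 proteins of box C/D snoRNPs, 3 proteins of box H/ACA snoRNPs, 16 factors of the small subunit and 13 factors of the large subunit. Of the libraries, 3 carry the label sh2-Ift88, a short hairpin RNA against Ift88, a gene of intraflagellar transport, by which cells build primary cilia. The other 3 are controls of the same tumour model. For alleles, promoters, strain, age and the cells that received the hairpin, values were not given in the sources used here. Nothing in the labels says that the libraries came from separate animals, so p-values measure no more than the spread among these libraries, part of which may be technical.

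Ribosomes are assembled in the nucleolus. RNA polymerase I transcribes a long precursor RNA, guide RNAs in small nucleolar ribonucleoproteins (snoRNPs) direct its methylation and pseudouridylation, and separate sets of assembly factors fold, cut and export the small and large subunits. In growing and dividing cells the genes of these factors are commonly transcribed together, and Myc, which binds the E-box CACGTG, is a known activator of many of them.

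The targeted gene did not separate the groups. Ift88 had 519, 477 and 231 reads in sh2-Ift88 libraries 1, 2 and 3, against 455, 607 and 553 reads in control libraries 1, 2 and 3. After scaling for library size this was 14.7, 16.0 and 14.4 CPM (a read count scaled to the size of its library) in sh2-Ift88 libraries and 13.8, 19.7 and 13.7 CPM in controls. The log2 fold change of sh2-Ift88 over control was -0.06 (standard error 0.27), and 95% confidence limits lay at 61.3% and 149% of the control level. The transcript therefore does not check the labels, and the directions below describe libraries labelled sh2-Ift88.

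Gene counts summed to between 26802618 and 33772559 per library. Of 10 markers of WNT medulloblastoma, 7 had lower and 3 higher fitted levels, and their summed level ranged from 4294 to 5628 CPM in sh2-Ift88 libraries and from 3729 to 6375 CPM in controls. The WNT target genes Axin2 and Lef1 were at no less than 320 and 69.0 CPM in any library, but not all markers were even. Sp5 was at 38.7 to 74.0 CPM in sh2-Ift88 libraries, against 142, 51.6 and 2.69 CPM in controls 1, 2 and 3. Dkk2 was at 1.98, 24.0 and 5.68 CPM in sh2-Ift88 libraries, against 40.4, 7.41 and 87.9 CPM in controls. Control 3 thus had the least Sp5 and the most Dkk2. It also stood apart in Otx2, a homeobox gene of the choroid plexus list, which was at 272, 309 and 260.3 CPM in sh2-Ift88 libraries, against 337, 427 and 31.3 CPM in controls. Libraries sh2-Ift88 2, sh2-Ift88 3 and control 2 stood apart, with reads in 564, 387 and 492 olfactory receptor genes, which are normally silent in brain, against 31 in sh2-Ift88 1 and 24 and 38 in control 1 and control 3. Below, libraries with olfactory receptor reads are those with reads in more than 100 such genes. Libraries without them are those with fewer. In sh2-Ift88 3 a single row, Gm10800, took 20.3% of gene counts, and its TMM scaling factor was 0.598, against 1.05 to 1.24 in the other libraries. The choroid plexus gene Ttr was at 1389 CPM in sh2-Ift88 1 and near 0 elsewhere.

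None of the 40 genes differed between the groups beyond the spread between libraries. In edgeR's quasi-likelihood test, 0 of the 40 passed an adjusted p of 0.05, and 0 had an unadjusted p under 0.05. Over all 16768 genes tested, 0 passed (0% called), 541 (3.23%) had an unadjusted p under 0.05, and the smallest adjusted p was 0.9995. DESeq2 called 56 genes, 0.335% of those with an adjusted p (0.263% higher and 0.0718% lower). The call by limma-voom was 0 genes, and none of the 40 was called by either. All 40 genes had a 95% confidence interval that held 100% of the control level. The median lower bound was 50.4% and the median upper bound 149.9%. For a typical gene of the 40, levels between about these limits thus remain compatible with the values of these libraries.

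By direction, 33 of the 40 genes (82.5%) had a lower fitted level in sh2-Ift88 libraries and 7 a higher one, where 51.3% of all genes tested were lower. The median log2 fold change of the 40 was -0.21, against -0.01 over all genes tested. The fold changes ran from -0.60 for Tsr1 to 0.62 for Ltv1. This lean depended on single libraries. Without control 3, 15 of the 40 were lower, 25 were higher and the median was 0.10. Without sh2-Ift88 2, 26 were lower and the median was -0.07. With each other library left out in turn, 33 to 38 were lower and the median was -0.42 to -0.31. With a term for libraries with olfactory receptor reads in the fit of all 6, 23 were lower and 17 higher, and the median was -0.079. Within control 2, sh2-Ift88 2 and sh2-Ift88 3, the libraries with olfactory receptor reads, 19 were lower and 21 higher. Within the other 3 libraries 27 of the 40 were lower and the median was -0.23, against -0.11 over all genes. Each of the splits by olfactory receptor reads leaves 1 group with a single library. Values of bulk tissue cannot tell fewer cells of a type from less RNA per cell.

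**Figure D1:**
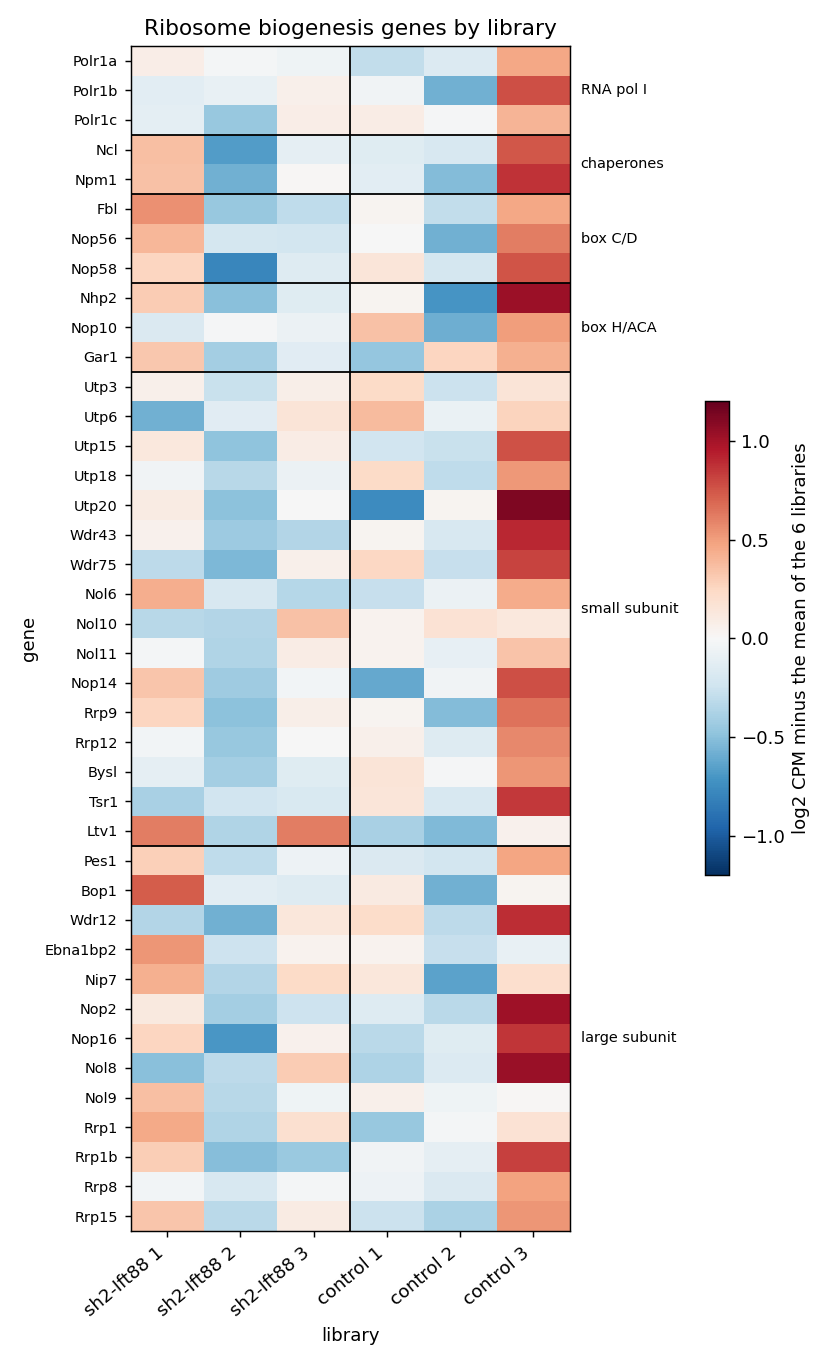
Level of each of the 40 genes (rows, by role) in each library (columns, sh2-Ift88 left of control), as log2 CPM minus the gene's mean over the 6 libraries. Control 3 is the highest library for 30 of the 40 genes, and sh2-Ift88 2 is the lowest for 21.

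The pattern over libraries was shared across roles and did not follow the labels. Control 3 held the highest level of 30 of the 40 genes (75.0%), where 23.0% of all genes tested were highest in that library. Library sh2-Ift88 2 held the lowest level of 21 genes (52.5%, against 12.4% of all genes tested), and control 2 that of 10. The mean level of the 40 genes was 5.93, 5.42 and 5.78 log2 CPM in sh2-Ift88 libraries 1, 2 and 3, against 5.74, 5.55 and 6.36 log2 CPM in controls 1, 2 and 3. The groups thus interleaved, and without control 3 the library sh2-Ift88 1 would be on top. For 38 of the 40 genes the fold between the highest and the lowest control exceeded the fold between the groups. Nol10 and Ltv1 were the others. A range over 3 libraries tends to be wider than a difference of means. The share of all genes tested is not given here, so this count is a description only. The highest library exceeded the lowest by 1.42-fold (Utp3) to 3.67-fold (Utp20), with a median of 2.17-fold. Over 11076 tested genes of the same range of levels that median was 2.08-fold, and edgeR's biological coefficient of variation was 33.4% in the 40 genes and 34.6% in those genes (medians).

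Control 3 was also the highest library for other measures, and the rest of the order was shared in part. The mean level of 12 proliferation markers was 6.27, 5.07 and 6.53 log2 CPM in sh2-Ift88 libraries and 6.14, 6.36 and 6.80 log2 CPM in controls, so control 3 was again the highest and sh2-Ift88 2 the lowest. Of the 12 markers, 11 had lower fitted levels, and their summed level ranged from 642 to 1573 CPM in sh2-Ift88 libraries and from 1213 to 1878 CPM in controls. Myc, named here after its values were seen, was at 113, 60.5 and 74.8 CPM in sh2-Ift88 libraries, against 44.8, 61.6 and 203 CPM in controls. Control 3 thus had the most Myc, sh2-Ift88 1 the next most and control 1 the least. The summed level of 10 neuron markers was 205, 163 and 17.9 CPM in sh2-Ift88 libraries and 56.1, 158 and 484 CPM in controls, with Gabra6 at 0 in control 1. Neuron markers were lowest in sh2-Ift88 3 and control 1, not in sh2-Ift88 2. Mean levels of oligodendrocyte and astrocyte markers were also highest in control 3 (4.34 and 6.30 log2 CPM). By summed level the astrocyte markers were highest in sh2-Ift88 1, at 728 CPM, against 713 CPM in control 3. Gja1 and Mal were lowest in control 3, at 124 and 23.7 CPM, and Aldh1l1 was highest in sh2-Ift88 3. The other markers of both lists were highest in control 3. Mean levels of choroid plexus and endothelium markers were lowest in control 3 (0.42 and 3.19 log2 CPM). WNT medulloblastoma markers had their highest mean in control 1 (8.50 log2 CPM), microglia and macrophage markers in sh2-Ift88 1 (3.84) and blood markers in control 2 (3.80). The part of these measures in the levels of the assembly factors was not tested.

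**Figure D2:**
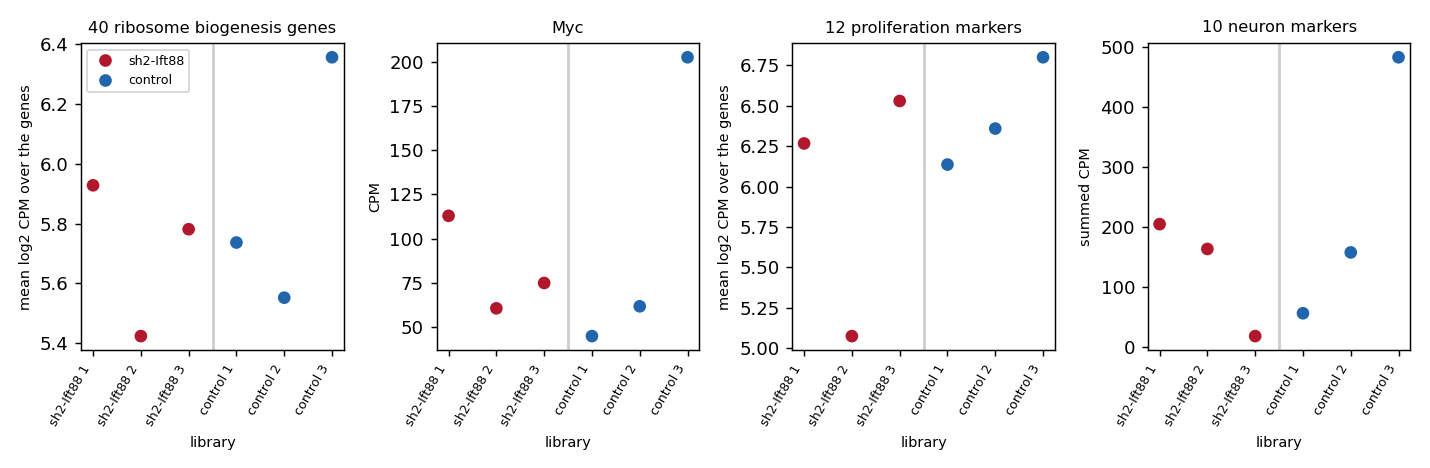
From left to right, the mean log2 CPM of the 40 ribosome biogenesis genes, the CPM of Myc, the mean log2 CPM of 12 proliferation markers and the summed CPM of 10 neuron markers, 1 point per library. Control 3 is the highest point in each panel, and the groups overlap in each.

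RNA polymerase I was represented by its large catalytic subunit Polr1a, the second-largest subunit Polr1b and Polr1c, a subunit shared with RNA polymerase III. All 3 had lower fitted levels, with a median log2 fold change of -0.21. Polr1a was at 113, 105 and 103 CPM in sh2-Ift88 libraries, against 87.0, 95.5 and 148 CPM in controls. The sh2-Ift88 values lay inside the range of the controls, giving a log2 fold change of -0.04 (standard error 0.26). Polr1c was at 39.9, 31.7 and 45.8 CPM in sh2-Ift88 libraries, against 46.2, 42.9 and 57.6 CPM in controls, a log2 fold change of -0.32 (standard error 0.25) with groups that overlap. Polr1b ranged from 42.8 to 48.7 CPM in sh2-Ift88 libraries and from 31.4 to 80.0 CPM in controls. Without control 3 the median of the role was 0.23.

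The nucleolar chaperones were the most abundant of the 40. Npm1 (nucleophosmin) binds nucleolar RNA and assembling particles, and Ncl (nucleolin) binds the precursor RNA. Together they made up between 36.5% and 45.1% of the summed CPM of the 40 genes in each library. Npm1 was at 1258, 659.8 and 995 CPM in sh2-Ift88 libraries, against 901, 687 and 1794 CPM in controls. Ncl was at 727, 357 and 527 CPM in sh2-Ift88 libraries, against 513, 497 and 950.0 CPM in controls. For each of the pair the ends of the whole range were control 3 and sh2-Ift88 2, with the other libraries between them. The log2 fold changes were -0.22 for Npm1 (standard error 0.45) and -0.28 for Ncl (standard error 0.40), and each turned positive without control 3, at 0.29 and 0.08.

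Box C/D snoRNPs place methyl groups on the sugars of rRNA. Fbl (fibrillarin) is their methyltransferase, and the paralogues Nop56 and Nop58 form the scaffold that holds it. All 3 had lower fitted levels, with a median of -0.10, which turned to 0.12 without control 3, 0.028 without sh2-Ift88 2 and 0.10 with the olfactory receptor term. Nop58 was at 178, 86.6 and 134 CPM in sh2-Ift88 libraries, against 164, 128 and 251 CPM in controls. Nop56 was at 182, 119 and 118 CPM in sh2-Ift88 libraries, against 137, 92.6 and 211 CPM in controls. In both genes the groups overlap, and the log2 fold changes were -0.45 for Nop58 (standard error 0.36) and -0.07 for Nop56 (standard error 0.36). Fbl ranged from 22.9 to 45.9 CPM in sh2-Ift88 libraries and from 25.6 to 43.5 CPM in controls.

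A ratio of genes within a library does not depend on how libraries are scaled. Nop58 reads per Nop56 read were 0.977, 0.727 and 1.13 in sh2-Ift88 libraries, against 1.2, 1.39 and 1.19 in controls, so every sh2-Ift88 library was below every control. The mean was 0.945 ± 0.205 in sh2-Ift88 libraries and 1.26 ± 0.111 in controls (SD, n = 3 each). An exact two-sided permutation test gave p = 0.1, the smallest that 3 against 3 libraries allow. The pair was named for its paralogy, but the ratio was taken after the counts were seen. Of all 780 ratios among the 40 genes, 96 (12.3%) had groups that do not overlap, so this separation is not particular to the pair. Exons of Nop56 overlap those of Idh3b on the other strand.

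**Figure D3:**
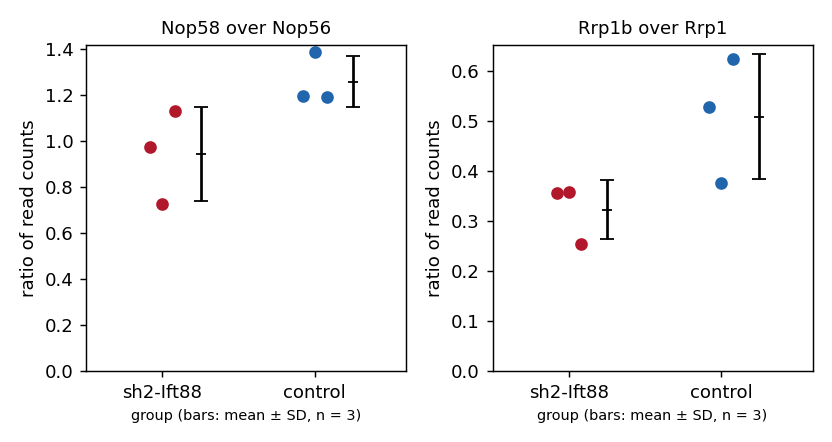
Ratio of read counts, Nop58 over Nop56 (left) and Rrp1b over Rrp1 (right), in each sh2-Ift88 and control library, with mean ± SD (n = 3 each) beside the points. In both panels the sh2-Ift88 points lie below the control points; for Rrp1b over Rrp1 the gap is from 0.359 to 0.376.

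Box H/ACA snoRNPs turn uridines of rRNA into pseudouridines, and Nhp2, Nop10 and Gar1 are 3 of their core proteins. All had lower fitted levels, with a median of -0.25. Nhp2 was at 75.9, 43.4 and 55.5 CPM in sh2-Ift88 libraries, against 62.7, 37.7 and 125 CPM in controls. Control 3 stood alone at the top, and the remaining libraries of the groups interleaved (log2 fold change -0.37, standard error 0.45). Nop10 was between 24.4 and 27.4 CPM in sh2-Ift88 libraries, inside the 18.4 to 39.0 CPM of controls. Gar1 was the least abundant of the 40 by CPM, at 4.84 to 8.01 CPM in sh2-Ift88 libraries and 4.63 to 8.58 CPM in controls, with 93 reads in its lowest library. Without control 3 the median of the role was 0.01, and within the libraries with olfactory receptor reads it was 0.38.

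The small-subunit factors included parts of the early processome (Utp3, Utp6, Utp15, Utp18, Utp20, Wdr43, Wdr75, Nol6, Nol10, Nol11, Nop14, Rrp9) and later factors of maturation and export (Rrp12, Bysl, Tsr1, Ltv1). Of these 16 genes, 15 had lower fitted levels and 1, Ltv1, a higher one, with a median of -0.29. Tsr1, a GTPase-like factor of late small-subunit particles, was at 55.6, 61.7 and 63.8 CPM in sh2-Ift88 libraries, against 80.1, 63.7 and 131 CPM in controls. The groups met at sh2-Ift88 3 and control 2, giving a log2 fold change of -0.60 (standard error 0.30). Its unadjusted p of 0.0857 was the smallest among the 40 genes (edgeR; adjusted p = 0.9995).

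Wdr43, an early processome protein, was the small-subunit factor with the highest CPM. It was at 112, 79.5 and 84.3 CPM in sh2-Ift88 libraries, against 110.5, 94.1 and 202 CPM in controls, a log2 fold change of -0.56 (standard error 0.34). Only sh2-Ift88 1 reached the range of the controls. Bysl, which acts late in small-subunit maturation, was the 1 gene of the 40 whose groups did not overlap, a separation that 8.39% of all genes tested showed in either direction and 3.69% in the same one. It was at 23.4, 19.1 and 22.9 CPM in sh2-Ift88 libraries, against 28.0, 24.9 and 36.4 CPM in controls (log2 fold change -0.45, standard error 0.25). Bysl was named here after its values were seen, and its exons overlap those of Ccnd3 on the other strand, so its count is uncertain if strand was ignored. The same holds for Tsr1, which overlaps Srr.

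Ltv1, an export and maturation factor of the small subunit, had the most positive fold change. Its level was 36.1, 18.2 and 35.9 CPM in sh2-Ift88 libraries, against 18, 16.3 and 24.3 CPM in controls. Libraries sh2-Ift88 1 and 3 lay above every control, and sh2-Ift88 2 lay among the controls. The log2 fold change was 0.62 (standard error 0.34), with 95% confidence limits at 88.9% and 266% of the control level. Ltv1 was the only one of the 40 with a positive fold change whichever library was left out. Another 14 genes had a negative fold change whichever library was left out, and 9 of them were small-subunit factors (Utp6, Utp18, Wdr43, Wdr75, Nol10, Nol11, Rrp12, Bysl and Tsr1). The rest were Polr1c, Nop58, Nop10, Wdr12 and Rrp1b. The share of all genes tested that kept one sign is not given here. The fits also share most of their libraries, so these counts are descriptions and do not show a change. Leaving out control 3 moved the small-subunit median to -0.09 and leaving out sh2-Ift88 2 moved it to -0.14, and it stayed below 0 in each of the 6 fits that left out a library.

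**Figure D4:**
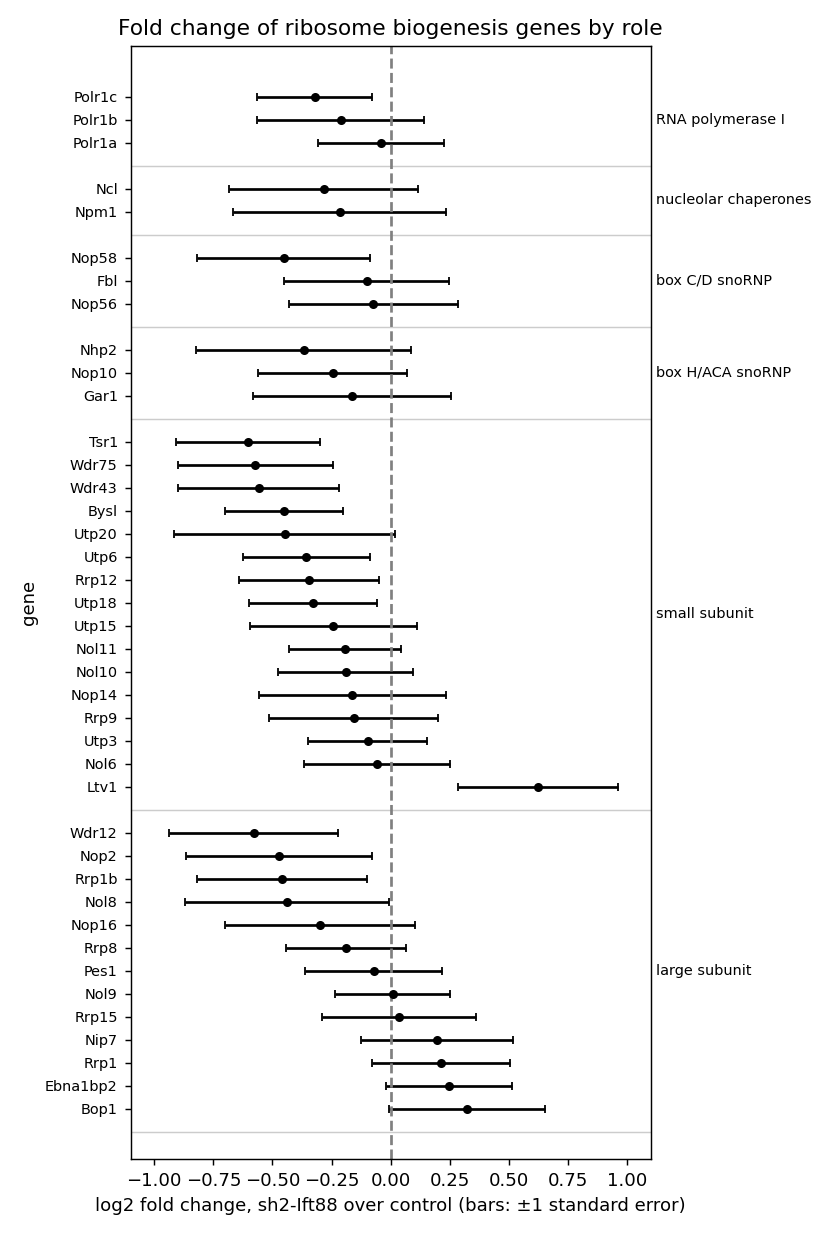
Log2 fold change of sh2-Ift88 over control for each of the 40 genes, ordered within roles (points), with ±1 standard error of the edgeR fit (bars). Of the 16 small-subunit genes 15 lie below 0, and the 13 large-subunit genes spread to both sides with 7 below and 6 above; no gene passed the test.

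The large-subunit factors had no common direction: 7 of 13 had lower and 6 higher fitted levels, with a median of -0.07. That median turned to 0.16 without control 3, 0.056 without sh2-Ift88 2 and 0.069 with the olfactory receptor term. It was 0.058 within the libraries with olfactory receptor reads and 0.053 within the others. A difference between the subunits was not tested. Pes1, Bop1 and Wdr12 form the PeBoW complex, which is needed for large-subunit rRNA processing, and they stood at different places. Pes1 was at 144, 95.7 and 113 CPM in sh2-Ift88 libraries, against 105, 101 and 165 CPM in controls, with a log2 fold change of -0.07 (standard error 0.29). Bop1 was at 147, 81.3 and 79.8 CPM in sh2-Ift88 libraries, against 95.6, 59.8 and 91.1 CPM in controls, with 0.32 (standard error 0.33). Wdr12 was at 37.7, 32.2 and 52.5 CPM in sh2-Ift88 libraries, against 55.8, 38.5 and 88.5 CPM in controls, with -0.58 (standard error 0.36). In each of the 3 the groups overlap, and the high Bop1 mean rests on sh2-Ift88 1: without it the log2 fold change was -0.05.

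The paralogues Rrp1 and Rrp1b, nucleolar proteins of large-subunit assembly, also differed in sign. Rrp1 was at 126, 71.5 and 105 CPM in sh2-Ift88 libraries, against 67.0, 90.2 and 103 CPM in controls (log2 fold change 0.21, standard error 0.29). Rrp1b was at 44.8, 25.7 and 26.8 CPM in sh2-Ift88 libraries, against 35.4, 33.9 and 64.6 CPM in controls (log2 fold change -0.46, standard error 0.36). Neither gene separated the groups. Rrp1b reads per Rrp1 read were 0.356, 0.359 and 0.255 in sh2-Ift88 libraries, against 0.528, 0.376 and 0.624 in controls. Every sh2-Ift88 library was below every control (exact two-sided permutation p = 0.1, the smallest possible with 3 against 3). This ratio too was taken after the counts were seen and stands beside the 12.3% of ratios that separate. Exons of Rrp1b overlap those of Hsf2bp on the other strand.

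Among the remaining large-subunit factors, the rRNA methyltransferase Nop2 was at 42.5 to 60.9 CPM in sh2-Ift88 libraries and at 50.5, 45.0 and 114 CPM in controls, where control 3 stood above the other two. Nol8 had a like shape, at 24.3 to 42.5 CPM in sh2-Ift88 libraries and 26.5 to 70.6 CPM in controls. Nol9, a polynucleotide kinase of rRNA processing, had the fold change nearest to 0, with 52.8 to 85.2 CPM in sh2-Ift88 libraries and 64.3 to 69.5 CPM in controls. Nop16, Rrp8, Rrp15, Nip7 and Ebna1bp2 had fold changes between -0.30 and 0.25.

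Compared per length, the levels of the 40 genes spanned a wide range. Lengths were those of the longest principal transcript of each gene in GENCODE M21. Median levels were 18.9 CPM per kilobase in sh2-Ift88 libraries and 23.8 CPM per kilobase in controls. Npm1 was the highest, at 595 CPM per kilobase in sh2-Ift88 libraries and 690.4 CPM per kilobase in controls, and Rrp12 the lowest, at 3.72 CPM per kilobase in sh2-Ift88 libraries and 4.72 in controls. The box C/D scaffold genes Nop58 (77.4 in sh2-Ift88 libraries, 105.9 in controls) and Nop56 (74.4 in sh2-Ift88 libraries, 78.3 in controls) stood above Fbl (26.3 in sh2-Ift88 libraries, 28.2 in controls), all in CPM per kilobase. Among the box H/ACA proteins Nhp2 was at 55.9 in sh2-Ift88 libraries and 72.1 in controls, Nop10 at 23.5 in sh2-Ift88 libraries and 27.8 in controls, and Gar1 at 4.89 in sh2-Ift88 libraries and 5.48 in controls, all in CPM per kilobase. Small-subunit genes reached at most 26.6 CPM per kilobase in sh2-Ift88 libraries and 39.2 in controls, for Wdr43.

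RefSeq promoter windows (build GRCm38.p6, 250 bases before to 50 after a start) were at hand for 34 of the 40 genes, in 39 windows; the counts themselves rest on mm9, and genes were matched by symbol. They are shown because Myc and the assembly factors were highest in the same library and Myc binds the E-box. Of the rest of its family, Mxd1 was also highest in control 3, at 16.8 CPM. The others were highest in other libraries. Over 10 genes of the Myc family, Myc included, the mean level was lowest in control 3. It was 4.44 log2 CPM there, against 4.45 to 5.06 log2 CPM in the other libraries. Mycn and Mycl1 were at 1.21 and 2.99 CPM in control 3. The summed level of the 10 genes was 503 CPM there, against 382 to 510 CPM in the other libraries. A part of Myc in the levels of the assembly factors was not tested. The E-box CACGTG, which reads the same on both strands, was in 8 of the 39 windows (20.5%), against 7.15% of all 32851 windows. Searched only before the start, it was in 3 of 39 (7.69%, against 6.02% of all), so most of the matches lay just after the start. The 8 sites are printed with flanking bases, 30 in all, 5′ to 3′ on the strand of the gene, with the E-box in capitals:
Tsr1 (chr11:74898092-74898121, plus strand): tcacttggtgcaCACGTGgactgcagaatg
Ltv1 (chr10:13193092-13193121, minus strand): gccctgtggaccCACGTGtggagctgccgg
Wdr43 (chr17:71616220-71616249, plus strand): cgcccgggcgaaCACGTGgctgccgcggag
Utp18 (chr11:93885769-93885798, minus strand): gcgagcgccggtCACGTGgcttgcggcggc
Utp20 (chr10:88826765-88826794, minus strand): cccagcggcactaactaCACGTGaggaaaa
Nol11 (chr11:107189407-107189436, minus strand): cttgagcgttcgCACGTGgtctagactcca
Pes1 (chr11:3963965-3963994, plus strand): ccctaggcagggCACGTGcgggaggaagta
Nop2 (chr6:125131811-125131840, plus strand): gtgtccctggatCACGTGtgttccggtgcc

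The first base of the E-box lay 60, 43 and 20 bases before the start in Nop2, Nol11 and Utp18, and at bases 3, 18, 25, 29 and 38 after it in Pes1, Wdr43, Tsr1, Ltv1 and Utp20. Both ends of the range of fold changes, Tsr1 and Ltv1, carry one. Of the 8 genes 7 were highest in control 3, as were 20 of the 26 genes without one, and the median log2 fold changes were -0.39 and -0.20. These are descriptions, and a match is not shown to be a bound site.

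The ETS-type motif CCGGAAGT, searched on both strands, was in 10 of the 39 windows (25.6%, against 3.89% of all windows). The GC box GGGCGG was in 28 (71.8%, against 35.7%) and CCAAT in 12 (30.8%, against 37.4%). CACGCG was in 10 (25.6%, against 9.27%), or 4 when searched only before the start (10.3%, against 7.62%). The windows held a palindrome centred on CGCG in 2 cases, both of Nol9 (5.13%, against 0.466%), while long forms of the NRF1 and YY1 motifs were in 0 (against 0.971% and 0.852% of all windows). The median GC content was 59.3% in the windows of the assembly factors and 52.7% in all windows. These 8 motifs were chosen with the counts known and searched on both strands, and overlaps between them were not removed. The 250 bases before the Ltv1 start (chr10:13193138-13193387, minus strand) are shown because they hold the ETS-type motif once on each strand, in capitals:
Ltv1: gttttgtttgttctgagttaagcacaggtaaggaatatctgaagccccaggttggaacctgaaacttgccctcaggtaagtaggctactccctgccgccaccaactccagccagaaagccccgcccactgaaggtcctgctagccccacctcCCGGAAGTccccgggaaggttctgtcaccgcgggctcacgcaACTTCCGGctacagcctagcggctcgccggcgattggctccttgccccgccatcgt

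Other genes of ribosome assembly, listed by their known role, were also lower more often than higher. Of 117 listed, 113 were present and tested; 77 had lower and 36 higher fitted levels, and their median log2 fold change was -0.09. None passed the edgeR test and 1, Rexo4, had an unadjusted p under 0.05. The groups did not overlap for 3 that were higher and 3 that were lower, where 4.7% and 3.69% of all genes tested did so. Without control 3 the medians were -0.0047 for RNA polymerase I factors, 0.10 for snoRNP genes, 0.07 for small-subunit factors and 0.08 for large-subunit factors. Little of this lean thus remained without that library.

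Of 12 other factors of RNA polymerase I, 9 were lower and 3 higher; the initiation factor Rrn3 was at 132 ± 22.1 CPM in sh2-Ift88 libraries and 177 ± 30.5 CPM in controls, and Taf1b at 19.0 ± 5.95 CPM in sh2-Ift88 libraries and 16.0 ± 2.22 CPM in controls (SD, n = 3 each). Of 13 other genes of snoRNPs and their assembly, 8 were lower and 5 higher. Rpap3, of the chaperone complex that assembles snoRNPs, was at 90.1, 45.4 and 48.8 CPM in sh2-Ift88 libraries, against 37.3, 41.8 and 30.9 CPM in controls, so its groups did not overlap (log2 fold change 0.74, standard error 0.32). Tcof1, a nucleolar factor of rRNA transcription, was at 42.4 ± 6.79 CPM in sh2-Ift88 libraries and 49.7 ± 12.8 CPM in controls.

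Of 38 other small-subunit factors, 30 were lower and 8 higher. Imp4, a processome protein, was at 31.7 ± 4.78 CPM in sh2-Ift88 libraries and 45.2 ± 13.5 CPM in controls. Dnttip2 was at 142, 38.8 and 54.0 CPM in sh2-Ift88 libraries, against 30.6, 48.5 and 50.8 CPM in controls, and its higher mean came from sh2-Ift88 1. Of 50 other large-subunit factors, 30 were lower and 20 higher. Rexo4 was at 22.8, 32.8 and 28.8 CPM in sh2-Ift88 libraries, against 45.3, 49.0 and 35.4 CPM in controls, and Nol12 at 52.6, 34.5 and 28.0 CPM in sh2-Ift88 libraries, against 26.9, 23.8 and 23.5 CPM in controls. In both the groups did not overlap. The log2 fold changes were -0.62 for Rexo4 (standard error 0.25) and 0.63 for Nol12 (standard error 0.29), and neither passed.

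The Myc family of E-box binding factors had 5 of 10 genes higher and 5 lower, with a median of 0.00. Its partner protein gene Max was at 35.0 ± 9.20 CPM in sh2-Ift88 libraries and 47.4 ± 12.6 CPM in controls (SD, n = 3 each). Mxd4, which competes with Myc for Max, was at 168 ± 6.70 CPM in sh2-Ift88 libraries and 129 ± 29.4 CPM in controls. Neither passed.

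**Figure D5:**
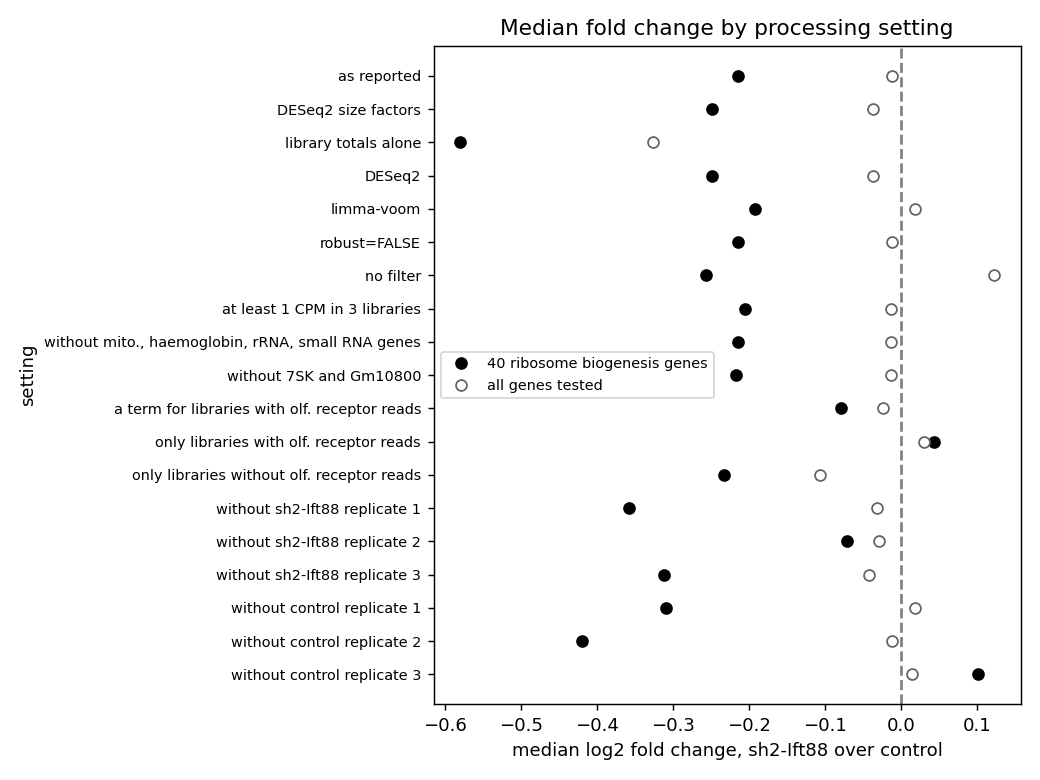
Median log2 fold change, sh2-Ift88 over control, of the 40 ribosome biogenesis genes (filled) and of all genes tested (open) under each processing setting (rows). The median of the 40 is -0.21 as reported, 0.10 without control replicate 3 and 0.04 within the libraries with olfactory receptor reads, and -0.42 to -0.07 without any other single library.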

How the data were processed

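RNA-seq of 6 brain tumour libraries was analysed, 3 labelled sh2-Ift88 and 3 control. Per the labels' protocols, libraries were made from total RNA with a stranded kit. The submitters' processing notes name BWA and the build mm9. For the counting program, annotation and strand setting, details were not given in the sources used here. Raw read counts per gene symbol were deposited, without normalization. In each file 5 tally rows that name no gene entered neither library sizes nor tests; no-feature reads made up 18.8% to 39.5% of tallied reads, ambiguous reads 0.876% to 4.37% and reads not aligned 2.93% to 10.2%. In GENCODE M21, 11 of the 40 genes have exons that overlap a gene on the other strand (Nop56 with Idh3b and Bysl with Ccnd3, for example), so their counts are uncertain if strand was ignored.

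The test was edgeR 4.0.16 under R 4.3.3 (filterByExpr, TMM, robust quasi-likelihood test, two-sided, Benjamini-Hochberg over 16768 genes, threshold 0.05). All 40 genes passed the filter on low counts. CPM values use TMM-scaled library sizes. Alternatives were DESeq2 1.42.0, limma-voom 3.58.1, other scalings and filters, and subsets of libraries; leaving out 7SK and Gm10800 was added after seeing the data. The scripts were tested on simulated data. Genes named per role by rule were those with the highest CPM and of smallest p in each direction, paralogue pairs, and 1 gene per direction in each further list. Other members, such as Polr1b, Fbl, Nop10, Gar1, Nop2, Nol8 and Nol9, were described outside this rule. Bysl, Myc and Mycn were named after their values were seen. The members and lists were chosen with earlier results of these data known. Promoters are from RefSeq, build GRCm38.p6.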

Additional observations from a re-analysis of the deposited data

How the results depend on the processing

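No paired analysis was possible because the labels give no replicate numbers that pair libraries; replicates were numbered in accession order. The count of genes called was 0 in edgeR, 56 with DESeq2 and 6 without a filter on low counts, and 0 of the 40 ribosome biogenesis genes were called under any of the 18 alternatives. An unadjusted edgeR p under 0.05, found for 0 of the 40 as reported, was reached by Ltv1 without sh2-Ift88 2, by Wdr75 and Tsr1 without control 2, by Wdr75, Tsr1 and Wdr12 with library totals alone, and by Bop1 with the olfactory receptor term. The number of the 40 that were lower was 19 within the libraries with olfactory receptor reads, and 15 to 38 with libraries left out in turn. Their median log2 fold change was -0.58 with library totals alone, where the median of all genes was -0.33 (0.12 without a filter, -0.01 as reported), and -0.42 to 0.10 with libraries left out. With library totals alone the RNA polymerase I median was -0.58 and the small-subunit median -0.65. Within the libraries with olfactory receptor reads the RNA polymerase I median was 0.11 and that of box H/ACA 0.38, and the RNA polymerase I median was -0.41 to 0.23 with libraries left out. The cause of these shifts was not tested.

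Of Ift88 and the genes named by the rule above, 26 in all, 13 changed sign under some alternative. Ift88 was at 0.061 within the libraries without olfactory receptor reads and at -0.16 to 0.13 with libraries left out. With limma-voom Polr1a was at 0.0017. With a term for libraries with olfactory receptor reads Polr1a was at 0.034, Npm1 at 0.084, Nhp2 at 0.041, Pes1 at 0.069 and Nop56 at 0.21. Within those libraries alone the log2 fold changes were 0.11 for Polr1a, 0.26 for Npm1, 0.38 for Nhp2, 0.032 for Pes1, 0.13 for Wdr12, 0.35 for Nop56, -0.042 for Rrp1, -0.073 for Dnttip2 and 0.18 for Max. Within the other libraries Pes1 was at 0.053 and Nop56 at 0.020. With library totals alone Rrp1 was at -0.13 and Taf1b at -0.14. With libraries left out in turn the ranges were -0.19 to 0.23 for Polr1a, -0.48 to 0.29 for Npm1, -0.59 to 0.085 for Ncl, -0.69 to 0.21 for Nhp2, -0.27 to 0.18 for Pes1, -0.050 to 0.46 for Bop1, -0.34 to 0.28 for Nop56, -7.2e-05 to 0.41 for Rrp1 and -0.061 to 0.38 for Taf1b. No other gene of these 26 changed sign. Further members described above, such as Fbl and Nol9, are not counted here. Of all 40 genes, 15 kept one sign as reported and in every fit that left out a library. The lowest count of any of the 40 genes in a library was 93 reads; how much of the interval width comes from depth was not tested.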

Other observations

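Mycn, the Myc paralogue expressed in neural progenitors, did not follow the assembly factors over libraries. It was at 34.1, 4.13 and 16.6 CPM in sh2-Ift88 libraries, against 28.8, 26.3 and 1.21 CPM in controls. Control 3, which had the highest level of Myc and of 30 of the 40 ribosome biogenesis genes, thus had the lowest level of Mycn. The log2 fold change of Mycn was -0.04 with a standard error of 1.08. Its values were seen before it was named.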
